A study of Mus musculus with 4 samples.

Results

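The Hox genes are the homeobox transcription factor genes of the Hoxa, Hoxb, Hoxc and Hoxd clusters, and 33 of them were measured among the 18193 genes with a named probe set on the arrays. Members were all genes whose annotated symbol is Hox followed by a cluster letter and a paralogue number, a rule that uses no measured value. Hoxb8 and Hoxd4 were read only by probe sets shared with Hoxb7 and Hoxd3. The Hoxa and Hoxb clusters had 9 measured genes each, the Hoxc cluster 7 and the Hoxd cluster 8. By paralogue number, 7 genes belonged to the anterior groups 1 to 3, 12 to the central groups 4 to 8 and 14 to the posterior groups 9 to 13.

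The arrays were made for a study of Hand2, a basic helix-loop-helix factor of the lower jaw, and 1 Affymetrix Mouse Genome 430 2.0 array was hybridised for each of 4 groups. The mutant embryos, Hand2NC, carried a CAG-CAT-Hand2 transgene that Wnt1-Cre switches on in the neural crest lineage, and their controls were wild-type littermates of a mixed C57BL/6J and ICR background. The methods state that RNA was pooled, and the figure legends give an n of 3 per genotype for E12.5 and of 4 for E11.5. The sample labels give the head as the tissue at E12.5 and the whole body at E11.5. The 4 groups were thus Hand2NC heads at E12.5, wild-type heads at E12.5, Hand2NC bodies at E11.5 and wild-type bodies at E11.5. Stage and tissue changed together between the arrays, and the effects of age and of body region cannot be told apart. The legend for E11.5 names heads instead, but 8 of 8 fetal liver markers and 6 of 7 heart muscle markers lay at or above the median signal of both E11.5 arrays, against 2 of 8 and 2 of 7 on both E12.5 arrays. Where the heads were cut from the trunk is not given in the sources used here. With 1 pooled array per group no difference had a replicate check, and no p-value was computed.

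Hox proteins give cells their position along the head-to-tail axis. In each cluster the genes at the low-numbered end are switched on earlier and further forward, and those at the high-numbered end later and further back, a rule known as collinearity. The hindbrain and the neural crest of the more posterior branchial arches express low-numbered genes, whereas the neural crest of the first branchial arch, which builds both jaws, normally forms without Hox expression. Retinoic acid, Cdx factors and the opposing Polycomb and trithorax complexes set or hold the Hox domains, and Pbx and Meis proteins of the TALE class bind DNA together with Hox proteins.

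Hand2 checked the labels. One of its probe sets read 706 in Hand2NC heads and 33.4 in wild-type heads, a log2 ratio of 4.40, and 314 in Hand2NC bodies and 67.1 in wild-type bodies, a log2 ratio of 2.23. The brightest Hand2 probe set read 839 and 592 in Hand2NC and wild-type heads, and 1244 and 1214 in Hand2NC and wild-type bodies. The Y-linked gene Kdm5d read 8.72 in Hand2NC heads and 677 in wild-type heads, against 535 in Hand2NC bodies and 578 in wild-type bodies, so Y-linked signal was near absent from the pool of Hand2NC heads. The array medians, which served as the lower limit of usable signal, were 102 and 106 in Hand2NC and wild-type heads and 101 and 97.2 in Hand2NC and wild-type bodies.

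Promoter sequence was at hand for 22 Hox genes, 19 of them measured, in 24 windows of 250 bases upstream of RefSeq start sites (GRCm38.p6). Shown here are the windows of Hoxd1, which was lower in Hand2NC heads, of Hoxb4, which was higher in them, and of Hoxd13, which was dim in all heads and bright in bodies. Capitals mark CANNTG, the E-box core that basic helix-loop-helix proteins such as Hand2 bind. The windows lie at chr2:74762730-74762979 for Hoxd1, chr11:96318017-96318266 for Hoxb4 and chr2:74667975-74668224 for Hoxd13, each on the plus strand and read 5′ to 3′.
Hoxd1: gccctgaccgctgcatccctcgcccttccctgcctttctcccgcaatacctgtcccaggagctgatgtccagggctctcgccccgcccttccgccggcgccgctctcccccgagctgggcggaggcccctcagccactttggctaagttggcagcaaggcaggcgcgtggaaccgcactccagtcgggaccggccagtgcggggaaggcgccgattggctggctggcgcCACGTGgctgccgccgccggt
Hoxb4: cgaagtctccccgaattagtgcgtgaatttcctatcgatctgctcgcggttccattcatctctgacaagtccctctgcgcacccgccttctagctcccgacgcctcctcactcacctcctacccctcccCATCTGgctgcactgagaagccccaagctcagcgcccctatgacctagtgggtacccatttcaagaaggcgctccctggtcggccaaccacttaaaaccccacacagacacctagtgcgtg
Hoxd13: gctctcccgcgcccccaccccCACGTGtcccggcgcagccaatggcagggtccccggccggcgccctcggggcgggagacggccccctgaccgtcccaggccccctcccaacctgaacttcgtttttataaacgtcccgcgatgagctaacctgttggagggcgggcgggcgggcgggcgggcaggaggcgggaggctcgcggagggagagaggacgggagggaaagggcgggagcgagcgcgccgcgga
Each of the 3 windows held 1 CANNTG match. Searched on both strands, CANNTG stood in 17 of the 24 Hox windows (70.8%), against 66.2% of all 32851 promoter windows of this length. AGGTCA, the half-site of retinoic acid receptors, stood in 6 Hox windows (25.0%), that of Hoxb4 among them, against 14% of all windows. TGATNNAT, a sequence bound by Pbx and Hox proteins together, stood in 4 (16.7%), against 7.68%. Matches of different motifs overlapped in 1 Hox window. The Hox windows had a median GC content of 58.6%, against 52.4% over all windows. These matches describe letters only.

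The first comparison asked which Hox genes the heads at E12.5 expressed, relative to the whole bodies at E11.5. In heads the signal stopped part of the way along each cluster. Of the 33 Hox genes, 13 lay at or above the array median in Hand2NC heads and 12 in wild-type heads, against 25 in Hand2NC bodies and 26 in wild-type bodies. Among the anterior genes 6 of 7 lay at or above the median on each of the 4 arrays, the exception being Hoxb1, which patterns a single hindbrain segment and read between 28.1 and 49.6. Among the 12 central genes the counts were 7 in Hand2NC heads, 6 in wild-type heads, 10 in Hand2NC bodies and 10 in wild-type bodies. Among the 14 posterior genes they were 0 in both kinds of head, 9 in Hand2NC bodies and 10 in wild-type bodies. The last gene in paralogue order to reach the median in heads was Hoxa5, Hoxb6, Hoxc5 and Hoxd8 in the 4 clusters, and the probe set shared by Hoxb8 and Hoxb7 also reached it, at 229 in Hand2NC heads and 217 in wild-type heads. With the 75th percentile of each array as the limit, 5 Hox genes lay above it in Hand2NC heads, 3 in wild-type heads, 9 in Hand2NC bodies and 8 in wild-type bodies.

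**Figure D1:**
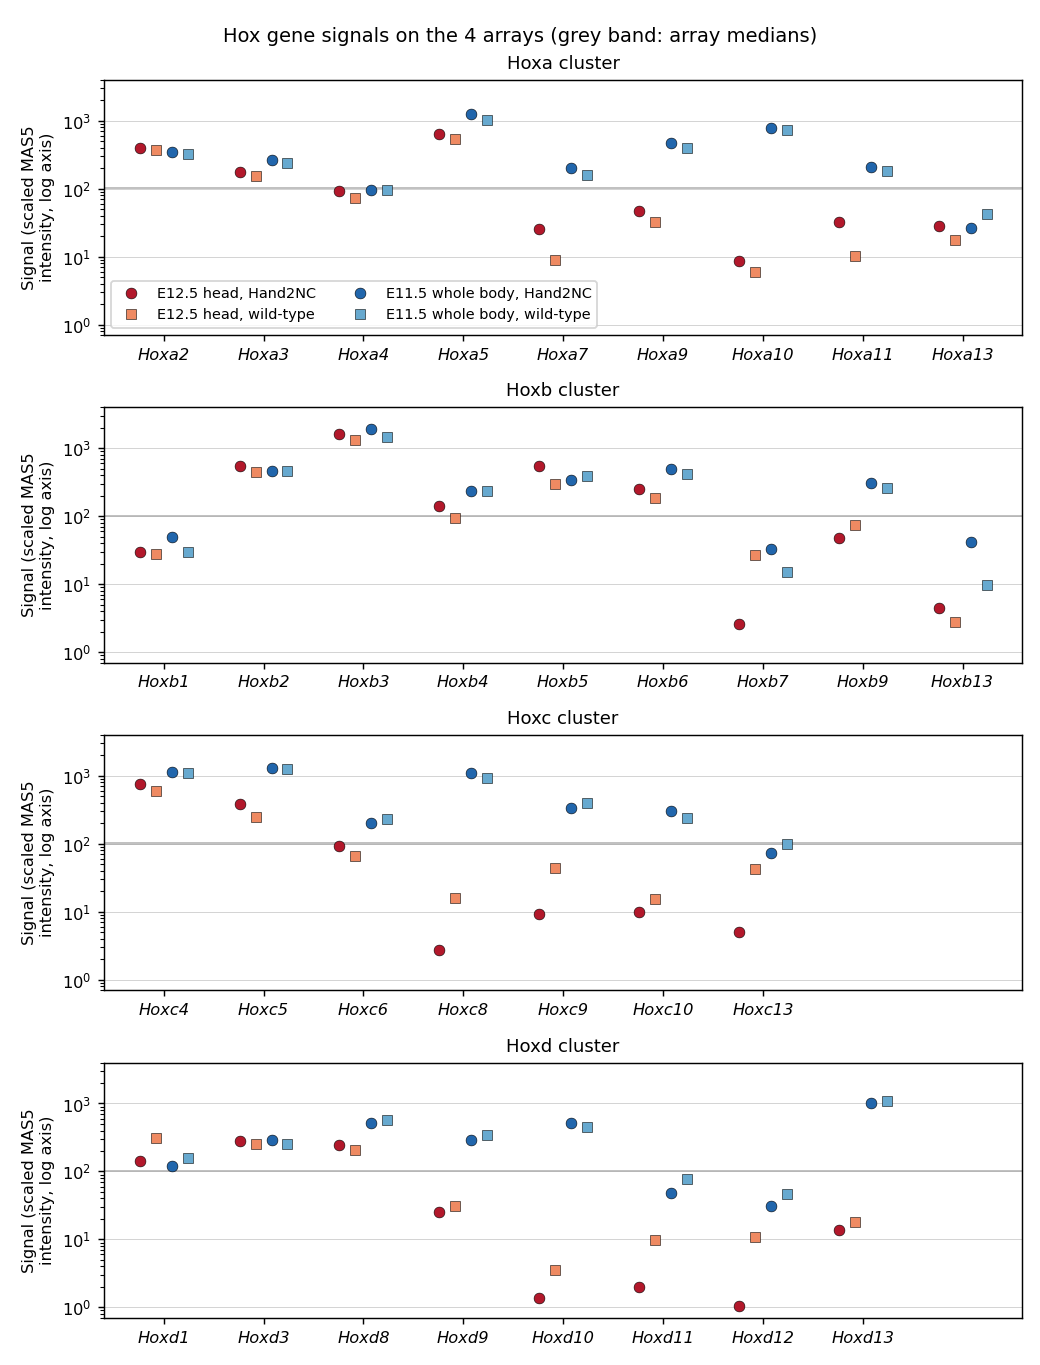
Signal of each measured Hox gene on the 4 arrays, on a log axis, 1 panel per cluster with genes in paralogue order; circles are Hand2NC, squares wild-type, reds E12.5 heads and blues E11.5 whole bodies, and the grey band spans the array medians of 97.2 to 106. Red and blue points lie close together at the left of each panel and mostly far apart at the right.

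**Figure D2:**
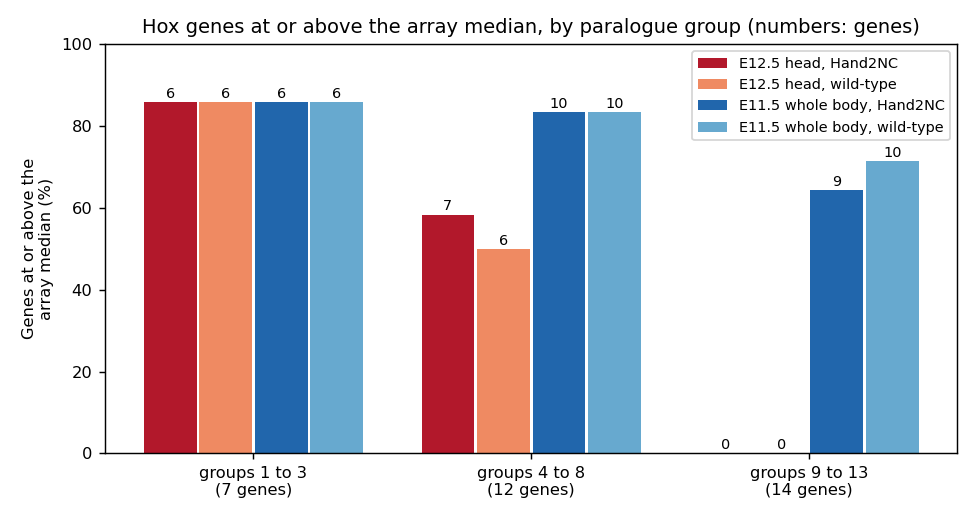
Percent of the measured genes of each paralogue class at or above the median of an array, with the number of genes above each bar, for Hand2NC and wild-type heads at E12.5 and Hand2NC and wild-type bodies at E11.5. All 4 bars are level at 6 of 7 genes for groups 1 to 3, and the head bars are at 0 of 14 for groups 9 to 13.

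Between stages, no Hox gene was at least 2-fold higher in heads in either genotype, with or without a signal filter. A gene passed the filter where the brighter array of a pair reached the median of that array. In Hand2NC embryos 15 of the 25 Hox genes kept were at least 2-fold lower in heads, where 2.24% of the 11990 genes kept were lower and 2.87% higher. In wild-type embryos 17 of 26 were, where 2.61% of 12059 were lower and 4.45% higher. A posterior gene could pass this filter only through its body array, so all 33 genes were counted as well. Without the filter 20 were at least 2-fold lower in Hand2NC heads, where 7.74% of all genes were lower and 8.51% higher, and 21 in wild-type heads, where 9.37% were lower and 8.39% higher. The median log2 ratio of heads to bodies over the 33 genes was -1.75 in Hand2NC and -1.49 in wild-type embryos, where the median over all genes was 0.04 in Hand2NC and 0.01 in wild-type embryos. Signals below the array median are imprecise in size. With each of them raised to that median, 14 Hox genes were at least 2-fold lower in each genotype, where 173 of all 18193 genes (0.951%) were in Hand2NC and 175 (0.962%) in wild-type embryos, and the medians were -0.69 in Hand2NC and -0.77 in wild-type embryos.

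The anterior genes differed little between heads and bodies. None of the 7 was at least 2-fold lower or higher in either genotype, and their median log2 ratio was -0.04 in Hand2NC and -0.06 in wild-type embryos. Hoxa2, which gives the second branchial arch its identity, read 400 and 366 in Hand2NC and wild-type heads and 343 and 324 in Hand2NC and wild-type bodies. Hoxb2, a hindbrain gene, read 546 and 441 in Hand2NC and wild-type heads and 467 and 466 in Hand2NC and wild-type bodies. Each was thus within 1.2-fold of its body level in both genotypes. Hoxb3 read 1639 and 1307 in Hand2NC and wild-type heads and 1903 and 1443 in Hand2NC and wild-type bodies. Hoxd3, a gene of the upper neck vertebrae, read 282 and 250 in Hand2NC and wild-type heads and 290 and 254 in Hand2NC and wild-type bodies. Hoxa3, which is needed for the thymus and the third branchial arch, had lower ratios than these genes. It read 176 and 154 in Hand2NC and wild-type heads and 260 and 241 in Hand2NC and wild-type bodies. Its log2 ratios were -0.56 in Hand2NC and -0.65 in wild-type embryos, and its second usable probe set gave -0.38 and -0.16. The second Hoxb3 probe set gave -0.58 and -0.45 in the same order, so this ranking depended on the probe set. Hoxd1, in mice a gene of pain-sensing neurons, read 142 in Hand2NC heads and 119 in Hand2NC bodies, a log2 ratio of 0.26, and 312 in wild-type heads and 158 in wild-type bodies, one of 0.98, the highest of all members in wild-type embryos.

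The central genes divided within their class. Hoxa5 and Hoxc4 were less than 2-fold lower in heads in both genotypes, as was Hoxb5 in wild-type heads only. Hoxb6 lay at or somewhat past that limit, and Hoxa7 and Hoxc8 were far below it. Hoxb5, which acts in the enteric nervous system and the shoulder, read 547 and 303 in Hand2NC and wild-type heads and 337 and 394 in Hand2NC and wild-type bodies, so it stood above its body level in Hand2NC heads (log2 ratio 0.70) and below it in wild-type heads (-0.38). Hoxa5, a gene of the lung and the lower neck, read 640 and 538 in Hand2NC and wild-type heads and 1248 and 1035 in Hand2NC and wild-type bodies, log2 ratios of -0.96 in Hand2NC and -0.94 in wild-type embryos. Hoxc4 read 749 and 593 in Hand2NC and wild-type heads and 1159 and 1101 in Hand2NC and wild-type bodies. These genes kept a signal in heads of several times the array median. Hoxb4, which in culture expands blood stem cells, read 144 and 94.9 in Hand2NC and wild-type heads and 231 and 232 in Hand2NC and wild-type bodies. Hoxb6, a gene of the trunk mesoderm, read 250 and 188 in Hand2NC and wild-type heads and 502 and 423 in Hand2NC and wild-type bodies. Hoxd8 read 246 and 207 in Hand2NC and wild-type heads and 522 and 579 in Hand2NC and wild-type bodies. Hoxb6 and Hoxd8 were thus 2-fold or more lower in heads in both genotypes, and Hoxb4 in wild-type embryos only, with a log2 ratio of -0.69 in Hand2NC and -1.29 in wild-type embryos.

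Hoxc5, which with Hoxa5 specifies the motor neurons of the diaphragm, had lower ratios than its cluster neighbour Hoxc4. It read 387 and 247 in Hand2NC and wild-type heads and 1305 and 1258 in Hand2NC and wild-type bodies, log2 ratios of -1.75 in Hand2NC and -2.35 in wild-type embryos. Hoxc6, a gene of the forelimb level of the spinal cord, read 93.4 and 65.6 in Hand2NC and wild-type heads, both below the array medians, and 204 and 228 in Hand2NC and wild-type bodies. Hoxa7 read 25.7 and 8.87 in Hand2NC and wild-type heads and 198 and 160 in Hand2NC and wild-type bodies. Hoxc8, a gene of thoracic vertebrae and motor neurons, read 2.73 and 16.2 in Hand2NC and wild-type heads and 1094 and 937 in Hand2NC and wild-type bodies, the lowest ratio of the class in both genotypes. With the dim signals raised to the array median, Hoxc8 was 10.8-fold lower in Hand2NC heads and 8.85-fold lower in wild-type heads. Hoxa4 and Hoxb7 lay below the median on all 4 arrays, Hoxa4 between 72.7 and 95.3 and Hoxb7 between 2.62 and 32.6. Over all 12 central genes, 7 were at least 2-fold lower in Hand2NC heads and 7 in wild-type heads, with median log2 ratios of -1.04 in Hand2NC and -1.23 in wild-type embryos.

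The posterior genes were dim in every head. All 14 were below the array median there, between 1.06 and 48.1 in Hand2NC heads and between 2.76 and 74.2 in wild-type heads, and their summed signal was 237 in Hand2NC heads, 318 in wild-type heads, 4439 in Hand2NC bodies and 4376 in wild-type bodies. At least 2-fold lower in heads were 13 of 14 in Hand2NC and 14 of 14 in wild-type embryos, with median log2 ratios of -4.22 in Hand2NC and -3.32 in wild-type embryos. The exception was Hoxa13, a gene of the digits and the genital tract, which was dim in bodies too, at 28.6 and 17.5 in Hand2NC and wild-type heads and 26.0 and 41.8 in Hand2NC and wild-type bodies. With dim signals raised to the array median, 9 were at least 2-fold lower in Hand2NC and 8 in wild-type embryos, and the medians were -1.53 in Hand2NC and -1.25 in wild-type embryos. Hoxd13, which shapes digits and the external genitalia, read 13.7 and 18.1 in Hand2NC and wild-type heads and 1027 and 1092 in Hand2NC and wild-type bodies. Hoxa10, a gene of the lumbar vertebrae and the uterus, read 8.48 and 5.87 in Hand2NC and wild-type heads and 775 and 740 in Hand2NC and wild-type bodies. Hoxd10, a gene of lumbar motor neurons, read 1.39 and 3.51 in Hand2NC and wild-type heads and 514 and 446 in Hand2NC and wild-type bodies. For each of the 3 the body level was several times the array median and the head level a small part of it. With the dim signals raised, Hoxd13 was 10.1-fold lower in Hand2NC heads and 10.3-fold lower in wild-type heads, Hoxa10 7.62-fold lower in Hand2NC and 6.99-fold in wild-type heads, and Hoxd10 5.05-fold lower in Hand2NC and 4.21-fold in wild-type heads.

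The other posterior genes bright in bodies followed the same form. Hoxa9, known from blood progenitors and leukaemia, read 47.1 and 32.6 in Hand2NC and wild-type heads and 462 and 395 in Hand2NC and wild-type bodies, and its second probe set read 3.68 and 5.07 in Hand2NC and wild-type heads and 2502 and 2253 in Hand2NC and wild-type bodies. Hoxc9, which sets the thoracic motor columns, read 9.44 and 43.6 in Hand2NC and wild-type heads and 338 and 393 in Hand2NC and wild-type bodies. Hoxb9, Hoxc10, Hoxd9 and Hoxa11 lay at or below 48.1 in Hand2NC heads and 74.2 in wild-type heads, and between 180 and 348 in bodies. The high-numbered ends of the clusters were not uniform in bodies. Hoxc13, a gene of hair and nails, read 73.8 in Hand2NC bodies and 101 in wild-type bodies and passed the median in wild-type bodies only, and Hoxb13, a gene of the tail tip and the prostate, Hoxd11, which acts in the forearm and the kidney, and Hoxd12 of the digits lay below the median on all 4 arrays.

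**Figure D3:**
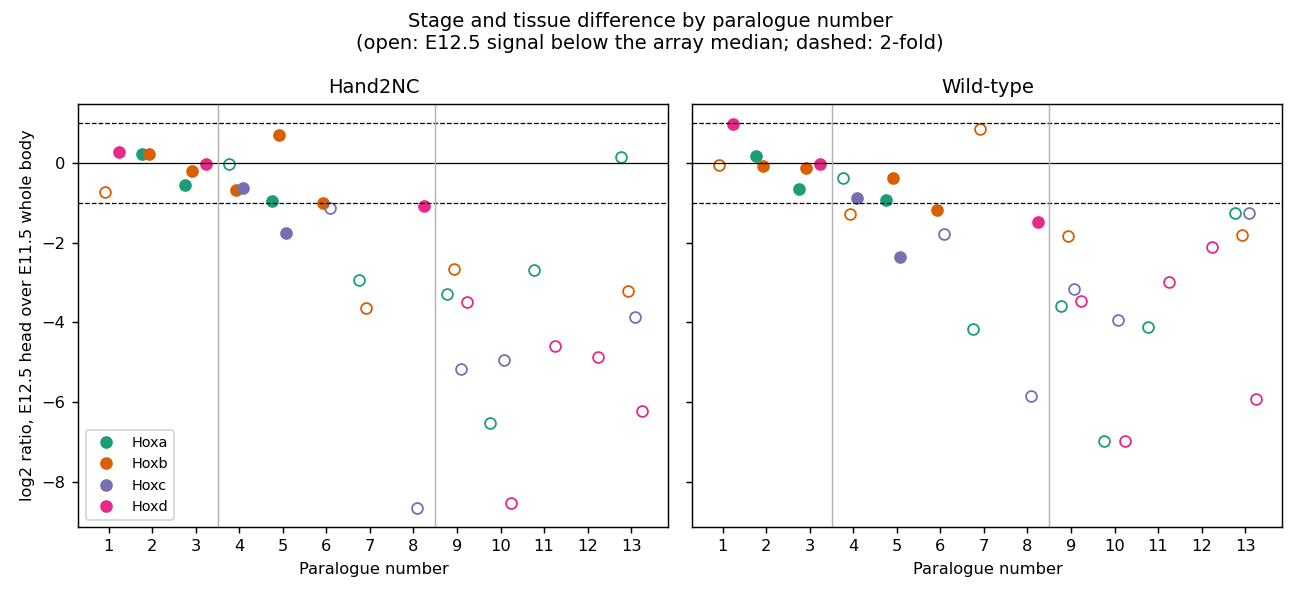
Log2 ratio of E12.5 heads to E11.5 whole bodies for each measured Hox gene against its paralogue number, in Hand2NC (left) and wild-type embryos (right); colours are clusters, open symbols have a head signal below the array median, dashed lines mark 2-fold and grey lines part the 3 classes. Filled symbols end at paralogue number 8, and open symbols beyond it reach -8.53 in Hand2NC and -6.99 in wild-type embryos.

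Tissue makeup differed between the same arrays. The summed signal of 11 measured forebrain and eye markers was 8888 in Hand2NC heads, 9505 in wild-type heads, 4287 in Hand2NC bodies and 4390 in wild-type bodies, and that of 10 hindbrain markers was 2346, 2557, 1632 and 1503 in the same order of arrays. By number, 7, 6, 7 and 7 of the 10 hindbrain markers lay at or above the median in that order, so their count was nearly level. Of 15 trunk markers of limb, kidney, gut and tail, 6 lay at or above the median in both kinds of head and 9 in both kinds of body. Their summed signal was 3290 in Hand2NC heads, 3399 in wild-type heads, 4159 in Hand2NC bodies and 3575 in wild-type bodies. The trunk markers Osr1, Barx1 and Uncx were brighter in heads in both genotypes. On these arrays of whole tissue, fewer cells of a type and less RNA per cell cannot be told apart. Cdx1, Cdx2 and Cdx4, activators of trunk Hox genes, lay between 0.27 and 52.0, below the median on all 4 arrays. Noncoding RNAs inside the clusters were measured as well. Hoxa11os, the antisense transcript of Hoxa11, read 1.27 and 24.3 in Hand2NC and wild-type heads and 430 and 350 in Hand2NC and wild-type bodies, and Hoxb5os read 262 and 199 in Hand2NC and wild-type heads and 962 and 1332 in Hand2NC and wild-type bodies. Of all 15 measured cluster neighbours and noncoding genes, 3 were at least 2-fold lower and 0 higher in Hand2NC heads. Without a filter, as here, 7.74% of all genes were lower and 8.51% higher. In wild-type heads 4 were lower and 1 higher, where 9.37% of all genes were lower and 8.39% higher. The lower ones were Hoxa11os, Hoxb5os and Hoxd3os1, with Skap2 in wild-type embryos only. The higher one, Skap1, lay below the median on both wild-type arrays.

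The second comparison set Hand2NC against wild-type heads at E12.5, where the transgene acts in the cranial neural crest. Of the 13 Hox genes above the filter 12 had a higher signal in Hand2NC heads, and 1, Hoxd1, had a lower one. The median log2 ratio of the 13 was 0.31, that of the 11814 genes kept was 0.00, and 50.9% of those lay above 0. Hoxd1 was the only Hox gene past 2-fold, with 142 in Hand2NC heads and 312 in wild-type heads, a log2 ratio of -1.13. At least 2-fold lower were 0.195% of the genes kept and at least 2-fold higher 0.203%. Hoxd1 has 1 probe set, its local spread was 0.27, and its ratio lay between -1.13 and -1.08 under every setting tried, but it drops out of the count where the brighter array must reach the 75th percentile.

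Most differences were far smaller than 2-fold and were read against the local spread, a robust standard deviation of the log2 ratio over the 500 genes nearest in mean signal, which holds measurement error and real differences together. Beyond it were 9 Hox genes higher in Hand2NC heads and 1 lower, of 13, whereas 16.9% of the genes kept were higher by more than their spread and 16.2% lower. Genes of 1 array pair share its preparation and Hox genes share their cells, so the 9 are not independent of each other. Among the 9 higher, the largest difference was that of Hoxb5, with 547 in Hand2NC heads and 303 in wild-type heads, a log2 ratio of 0.85 and a local spread of 0.20. Hoxc5 read 387 in Hand2NC and 247 in wild-type heads, a log2 ratio of 0.65, and Hoxb4 read 144 in Hand2NC and 94.9 in wild-type heads, a log2 ratio of 0.60. For Hoxb4 the wild-type signal lay under the array median, and raising it to the median gave 0.44. With both arrays required to reach their medians, Hoxb4 dropped out, and 8 of 12 were higher and 1 lower by more than the spread, where 16.8% of genes were higher and 16.1% lower. Hoxb6 had a log2 ratio of 0.42, Hoxc4 of 0.34, Hoxb3 of 0.33, Hoxb2 of 0.31, Hoxa5 of 0.25 and Hoxd8 of 0.25.

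By class, each of the 7 central genes that passed the filter, Hoxb4 only through its Hand2NC signal, was higher by more than its spread, with log2 ratios of 0.25 to 0.85 and a median of 0.42. Of the 6 anterior genes, Hoxb2 and Hoxb3 were higher by more than their spread, Hoxd1 was lower, and Hoxa2 (log2 ratio 0.13), Hoxa3 (0.19) and Hoxd3 (0.17) lay within it. By cluster, 5 of 5 Hoxb genes, Hoxb4 included, were higher by more than their spread, 2 of 2 Hoxc genes, 1 of 3 Hoxa genes and 1 of 3 Hoxd genes. No posterior gene could be read in heads. Median centring of each array added 0.06 to every ratio and quantile normalization left 9 higher and 1 lower. Without the signal filter 10 Hox genes were past 2-fold, 2 higher and 8 lower in Hand2NC heads, all but Hoxd1 with signals below the median in both heads. Of all genes, 6.56% were then higher and 6.07% lower.

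Further probe sets of the same genes gave a less even picture. Of 20 Hox probe sets above the filter, shared ones included, 17 had a higher signal in Hand2NC heads, and of the 7 among them that did not supply a gene's value 5 did. The second Hoxa5 probe set gave a log2 ratio of 0.46, and the second Hoxd8 probe set 0.28. The second Hoxb3 probe set read 155 in Hand2NC heads and 162 in wild-type heads, a log2 ratio of -0.06, against 0.33 for the first, and the second usable Hoxa3 probe set gave -0.05, against 0.19. For Hoxb3 and Hoxa3 the direction thus depended on the probe set. The second Hoxb4 probe set lay below the median in both kinds of head, at 61.3 in Hand2NC and 56.7 in wild-type heads. Its log2 ratio was 0.11, against 0.60 for the first. Both further Hoxc5 probe sets lay below the median in heads, at 65.3 and 60.5 in Hand2NC heads and 8.25 and 7.82 in wild-type heads, and the mean over its probe sets put Hoxc5 at 2.20. Hoxb6 has only a probe set that may bind several transcripts, so it drops out where these are removed. The shared probe sets of Hoxd4 and Hoxd3 read 190 and 133 in Hand2NC heads and 139 and 58.3 in wild-type heads, log2 ratios of 0.46 and 1.19, whereas the probe set of Hoxd3 alone gave 0.17. The shared probe set of Hoxb8 and Hoxb7 gave 0.08.

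**Figure D4:**
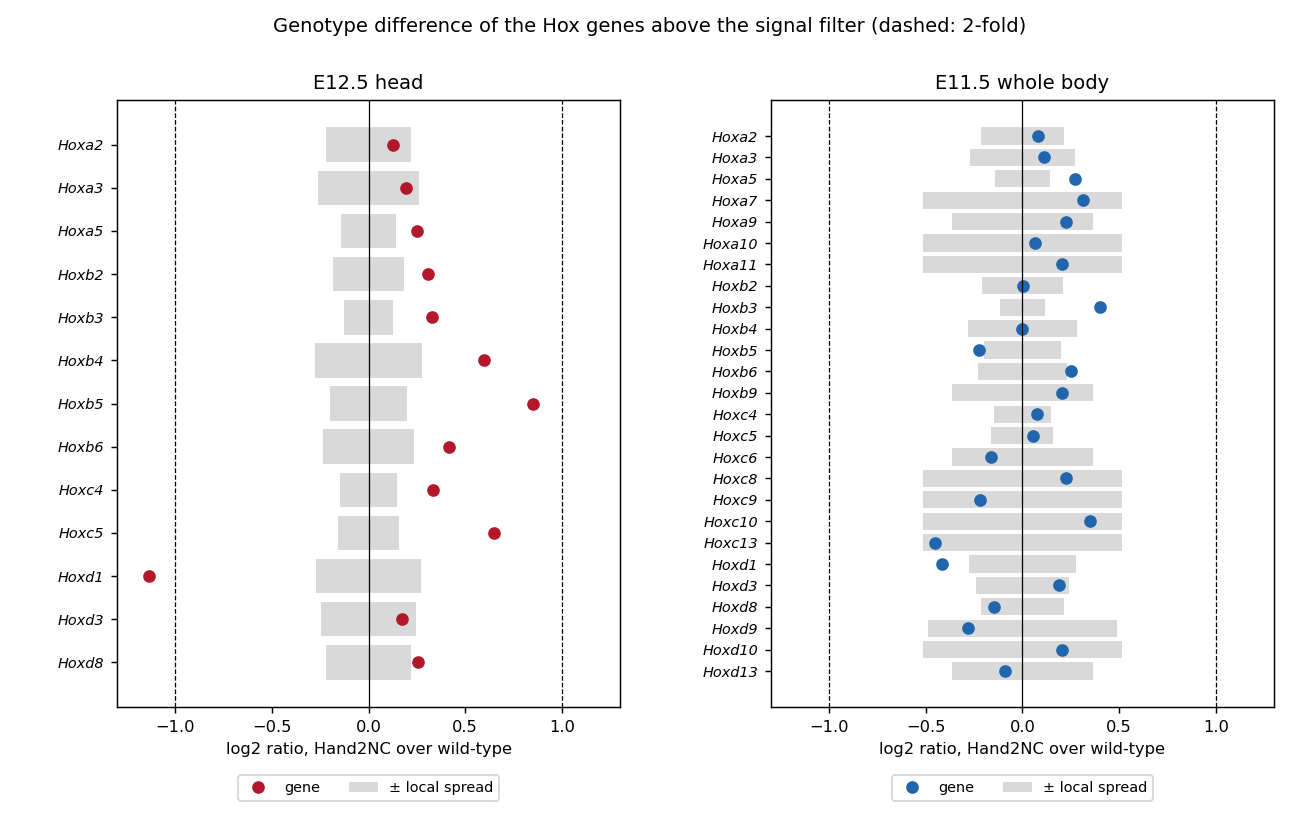
Log2 ratio of Hand2NC to wild-type for each Hox gene above the signal filter at E12.5 (left, 13 genes) and E11.5 (right, 26 genes); points are genes from 1 array pair, grey bars span plus and minus the local spread, and dashed lines mark 2-fold. At E12.5 all points but that of Hoxd1, at -1.13, lie right of 0, and at E11.5 they lie on both sides, between -0.45 and 0.40.

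Other marker lists were read in the same heads as well. Among all genes kept, 16.9% were higher and 16.2% lower by more than their spread. No list was tested against these shares. Of 8 hindbrain markers above the filter 0 were higher and 2 lower in Hand2NC heads by more than their spread. The lower ones were Lhx1 (log2 ratio -0.29) and En1 (-0.64), the latter below the array median in Hand2NC heads. Of 6 trunk markers 1 was higher, the somite and limb gene Meox2 (0.28), and 2 lower, Barx1 (-0.26) and Uncx (-0.53). Barx1 was also on the first arch list. Barx1 and Uncx were brighter in heads than in bodies in both genotypes, so this count is no measure of trunk content. Of 10 forebrain and eye markers 0 were higher and 3 lower, with a median log2 ratio of -0.11. Those lower were Six3 (-0.42), Vax1 (-0.28) and Lhx8 (-0.26). The study found Lhx8 staining weaker in the maxillary process of Hand2NC embryos, so this count is no measure of forebrain and eye content alone. Of 9 first arch mesenchyme markers 3 were higher, with Gsc at 1.03, Pitx1 at 0.85 and Hand2, the gene of the transgene, at 0.50. The rise of Hand2 was set by the design. Dlx6 (-0.46), Barx1 (-0.26) and Msx1 (-0.24) were the 3 lower. Of 13 neuronal markers 9 were lower in Hand2NC heads by more than their spread and 0 higher, with a median log2 ratio of -0.15 and a summed signal of 41858 in Hand2NC and 46470 in wild-type heads. The part of tissue makeup, of the level at which heads were cut and of sex in the Hox differences was not tested.

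The third comparison set Hand2NC against wild-type bodies at E11.5, and here the Hox genes were nearly level. None of the 26 above the filter was past 2-fold in either direction, a call made for 0.177% of the 11883 genes kept as higher and 0.269% as lower. The median log2 ratio was 0.08 for the Hox genes and -0.01 for all genes kept, and 17 of the 26 lay above 0, as did 47.2% of the genes kept. Beyond the local spread 3 were higher and 2 lower, where 16.1% of the genes kept were higher and 17.2% lower. Without the filter 2 Hox genes, Hoxb7 and Hoxb13, both below the median on both arrays, were at least 2-fold higher in Hand2NC bodies, where 4.88% of all genes were higher and 7.06% lower. The 3 beyond the spread were Hoxb3, with 1903 in Hand2NC bodies and 1443 in wild-type bodies (log2 ratio 0.40), Hoxa5 (0.27) and Hoxb6 (0.25). The 2 lower by more than it were Hoxd1, with 119 in Hand2NC bodies and 158 in wild-type bodies (-0.42), and Hoxb5 (-0.23). Hoxb3 rests on its first probe set, since the second gave 0.07. The discussion of the study takes up Hoxc8 with the genes dysregulated at E11.5. Here Hoxc8 read 1094 in Hand2NC bodies and 937 in wild-type bodies. Its log2 ratio of 0.22 was below the 2-fold cutoff, and its local spread was 0.51.

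The local spread of genes dim in heads is wide at E11.5 because it was taken at the mean signal of all 4 arrays. Taken at the signal of the 2 bodies alone, it was passed by 8 Hox genes higher and 3 lower in Hand2NC bodies, where 16.1% of the genes kept were higher and 17.5% lower. The posterior genes were close to level between genotypes, with log2 ratios of -0.45 to 0.35 among the 10 above the filter and a median of 0.13. Hoxd13 read 1027 in Hand2NC and 1092 in wild-type bodies, a log2 ratio of -0.09, and Hoxa10 775 in Hand2NC and 740 in wild-type bodies, one of 0.07. The central genes had a median of 0.06 over 10 genes, with 6 above 0, and the anterior genes one of 0.10 over 6 genes, with 5 above 0. Hoxb2 and Hoxb4 were level, at 467 and 231 in Hand2NC bodies and 466 and 232 in wild-type bodies.

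None of the genes above the filter in 4 lists of Hox cofactors and regulators (TALE, retinoic acid, Polycomb, trithorax) differed by 2-fold in either genotype comparison. Beyond the local spread at E12.5, 16.9% of all genes kept were higher and 16.2% lower, and the lists were not tested against these shares. Of the TALE cofactors 7 were above the filter, and at E12.5 Pbx2 was higher in Hand2NC heads by more than its spread (log2 ratio 0.20), while Pbx3 (-0.11) and Meis3 (-0.42) were lower. At E11.5 Meis2 had 4047 in Hand2NC bodies and 2855 in wild-type bodies, a log2 ratio of 0.50. Of 14 retinoic acid genes above the filter at E12.5, 5 were higher and 4 lower in Hand2NC heads by more than their spread. Rarg, a retinoic acid receptor, had a log2 ratio of 0.40 and Cyp26a1, which degrades retinoic acid, one of 0.59, whereas Cyp26b1, an enzyme of the same action, had one of -0.51. Of 13 Polycomb genes 2 were higher and 2 lower in Hand2NC heads, with Ezh1 at 0.39 and Cbx2 at -0.30. Of 9 trithorax genes and partners 1 was higher and 3 lower, and the higher one, Kdm6a (0.40), lies on the X chromosome. Of 10 neighbours and noncoding genes of the clusters above the filter 4 were higher and 1 lower, Hibadh (-0.26), with a median of 0.06. Evx1, beside Hoxa13, read 153 in Hand2NC and 113 in wild-type heads (0.43), and Lnpk, near Hoxd13, had a log2 ratio of 0.26. Calcoco1, near Hoxc13, read 143 in Hand2NC and 92.7 in wild-type heads (0.63). Calcoco1 passed the filter only through its Hand2NC signal, since the median of the wild-type head array was 106. Hoxb5os, which had 0.40 at E12.5, had -0.47 at E11.5, and so differed in the same directions as Hoxb5 at both stages.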

How the data were processed

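Total RNA of Hand2NC and wild-type embryos was pooled and hybridised to 1-colour arrays, 1 per genotype at E12.5 (head) and E11.5 (whole body). The authors deposited MAS5 signals, intensity values on a linear scale, for 45101 probe sets including 64 controls. No detection calls came with them, and MAS5 is named in the submitters' processing notes without a version. Signals were rescaled here so that the trimmed mean (2%) of all probe sets but the controls was 500 on every array, and log2 was taken. Of 45037 probe sets, 34945 had 1 gene symbol in the platform annotation, 932 several and 9160 none. A gene was read from the single-symbol probe set whose log2 signal had the highest mean on the 4 arrays, and RefSeq (GRCm38.p6) served for names and promoters. A gene was kept where the brighter array of a pair reached its median, and called at 2-fold. The counting was tested on simulated data. Members, gene lists and settings were chosen with earlier results of these data known. Genes were named by rule: every member past 2-fold or beyond the local spread between genotypes, at or above the median in heads, or brightest in a cluster on a wild-type array, and per cluster the lowest and highest ratio of heads to bodies. Cofactors, regulators and neighbours given as examples, and further members, were chosen after their values were seen. Alternatives were other scalings and filters, raising dim values to the median of their array and a mean of each gene's probe sets. Removal of probe sets that may bind several transcripts was another. A local spread from the compared pair and a count of probe sets instead of genes were added after seeing the data. The number of arrays limits the precision. Tools were matplotlib 3.10.9, scipy 1.17.1, pandas 2.3.3, numpy 2.4.6 and Python 3.11.15.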

Additional observations from a re-analysis of the deposited data

Results flagged for a closer look

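Hoxb5 differed in opposite directions at the 2 stages. It read 547 in Hand2NC heads and 303 in wild-type heads at E12.5, and 337 in Hand2NC bodies and 394 in wild-type bodies at E11.5, each difference beyond its local spread. Its log2 ratio at E12.5 exceeded that at E11.5 by 1.08, and this difference was not tested, since each stage has 1 array per genotype and the tissues differ.

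A probe set shared by Hoxd4 and Hoxd3, which gave no gene a value, was more than 2-fold higher in Hand2NC heads, with 133 in Hand2NC and 58.3 in wild-type heads, a log2 ratio of 1.19. At E11.5 it read 179 in Hand2NC bodies and 226 in wild-type bodies. The wild-type head signal lay below the array median.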

How the results depend on the processing

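Of 118 recomputed values, over 14 results, 95 kept their size, 23 moved and no median changed sign. A count kept its size within 1.5 times, and a median within the robust standard deviation of the log2 ratio over all genes kept, a wide tolerance: at E11.5 median centring gave a median of 0.02, where 0.08 was reported, and 2 higher and 3 lower beyond the local spread, where 3 and 2 were reported. Without the filter 10 Hox genes passed 2-fold between genotypes at E12.5 and 2 at E11.5, and 25 of 33 passed the local spread at E12.5, 14 higher and 11 lower. Only 13 of the 33 were above the filter at E12.5. The share over all genes was not computed for the 25, so they cannot be set against it. With the brighter array at its 75th percentile or above, 0 Hox genes passed 2-fold and 5 the local spread at E12.5, and 6 passed 2-fold between stages in Hand2NC and 5 in wild-type embryos. As the limit on each array, that percentile left 5 genes in Hand2NC heads, 3 in wild-type heads, 9 in Hand2NC bodies and 8 in wild-type bodies. With both arrays at their medians or above, 3 genes passed 2-fold between stages in each genotype and 8 the local spread at E11.5. Raising dim values gave stage medians of -0.69 in Hand2NC and -0.77 in wild-type embryos, and 12 genes beyond the local spread at E11.5, where a spread from the compared pair gave 11. No share over all genes was computed for the 12, or for the counts given here at the 75th percentile or with both arrays at their medians. The mean over probe sets gave a stage median of -1.34 in Hand2NC embryos. Removing probe sets that may bind several transcripts gave -2.47, and counting probe sets instead of genes gave -0.96. The mean over probe sets and the count of probe sets each gave 2 past 2-fold at E12.5. Median centring lowered every stage ratio in wild-type embryos by 0.12 on the log2 scale. The causes of these changes were not tested. No paired analysis was possible because each group has 1 array.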
